A study of Mus musculus with 47 samples.

Results

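A set of 6 transcription factor genes of the ETS family were followed across 47 RNA-seq libraries of mouse T-cell precursors: Spi1, Spib, Ets1, Ets2, Fli1 and Erg. They were taken by symbol from a table of 17754 genes, in which Spi1 stands under its older symbol Sfpi1, and each of the 6 had 1 entry. A further 15 ETS family genes in the table served for comparison.

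ETS factors bind DNA through a shared domain that recognises a GGAA core, and the bases around the core and the partner proteins separate one member from another. PU.1, the product of Spi1, drives myeloid and B-cell development and is expressed in the earliest thymic precursors, where it is shut off as cells commit to the T lineage. Spi-B, the product of Spib, is the closest relative of PU.1 and is known from B cells and plasmacytoid dendritic cells, while Ets1 acts in T-cell receptor gene expression, and Fli1 and Erg are factors of blood stem cells and megakaryocytes.

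The study deleted Bcl11b, which encodes a zinc-finger factor switched on at T-lineage commitment, to find which genes depend on it. Knockout (KO) cells were fetal liver precursors from E13.5 embryos with homozygously floxed Bcl11b, given a Cre retrovirus and grown on OP9-DL1 (8 libraries) or OP9-DL4 stroma (6 libraries). OP9-DL1 and OP9-DL4 are stromal lines that present the Notch ligands Delta-like 1 and Delta-like 4. Bcl11b-intact controls from C57BL/6 embryos also received the Cre retrovirus and were grown on OP9-DL1 (8 libraries) or OP9-DL4 (3 libraries). The titles of control DL1 replicates 1 and 2 and control DL4 replicate 1 name no Cre, unlike those of the other controls. All cultures held 5 ng/ml each of Flt3L and IL-7, but 4 KO and 3 control libraries came from cultures with reduced IL-7, a step that the labels' protocol says was later dropped for its effects on cell recovery and RNA quality.

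Normal B6 precursors on OP9-DL1, with no Cre named in their titles, were sorted at 2 successive stages, DN2a and DN2b. Some received GSI, an inhibitor of gamma-secretase that stops Notch receptors from signalling, at 1 µM for the last 12 hours (2 DN2a and 2 DN2b libraries), and others were left untreated (4 DN2a and 2 DN2b). The DN2b replicates 1, with and without GSI, carry DN3 in their titles, and DN2a replicate 4 was harvested at day 4.5 by its title. Thymic cells gave 1 DN2 KO library deleted in vivo by LckCre, 1 DN3 KO library cultured for 4 days on OP9-DL4 after tamoxifen (100 nM) with 2 cultured controls (CreERT2, wild-type Bcl11b), and 3 fresh DN3 libraries with intact Bcl11b (LckCre, CreERT2 with undeleted floxed Bcl11b, and CreERT2 alone). CreERT2 was expressed ubiquitously from ROSA26. Bone marrow precursors induced by tamoxifen and grown on OP9-DL4 gave 1 library from CreERT2 mice with floxed Bcl11b and 1 with wild-type Bcl11b. Retroviral vectors, read after 36 hours, gave 1 library each of KO cells with a Bcl11b vector, KO cells with empty vector and control cells with empty vector.

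The sort gate moved with the genotype: per the labels' protocol, floxed cells were sorted on a DN2a phenotype and controls on a DN2b phenotype, although the stage label of the KO libraries is DN2. By their titles, 8 KO libraries were DN2a, 5 DN2 and 1 DN2b, and 8 controls were DN2b and 3 DN2. Where the gates differ, a difference between KO and control cannot be told apart from one between gates. The 5 KO and 3 control libraries titled DN2 in both groups were therefore also compared on their own, an alternative added after the data were seen. In it the 3 controls are 1 culture on different days, as are 3 of the 5 KO libraries. Its p-values therefore do not measure the spread between control cultures. In bulk RNA, fewer cells of a type and less RNA per cell cannot be told apart either. Bcl11b itself ran from 8.77 to 37.9 FPKM (median 25.05) in KO libraries and from 16.9 to 84.4 FPKM (median 54.5) in controls, and the lowest control, DL1 replicate 1, lay inside the KO range. The values are FPKM, fragments scaled to transcript length and library total, so levels may be compared between genes, but sequencing depth is unknown. The summed level of 8 T-precursor markers was 1167 to 2222 FPKM in KO libraries and 1658 to 2371 FPKM in controls. The B-cell markers Cd79a and Ebf1 were under 1 FPKM in KO, control, DN2a, DN2b, GSI and thymic DN3 libraries, but 2 other B-cell markers passed the filter and are given beside Spib.

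Of the 6 genes, Ets1 had the highest mean over the 47 libraries, 62.2 FPKM, and Spib the lowest, 5.28 FPKM. The other 4 had means between 18.7 FPKM (Spi1) and 24.6 FPKM (Fli1). They differed in how much they varied. The coefficient of variation was 23.6% for Fli1, whose level stayed between 13.54 and 41.3 FPKM in all 47 libraries, and 110% for Spib, which ran between the table's floor of 0.1 FPKM and 24.9 FPKM. The floor was reached by Spib in 2 libraries and by Spi1, Ets1 and Ets2 in 1 library each, and by Fli1 and Erg in none.

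**Figure D1:**
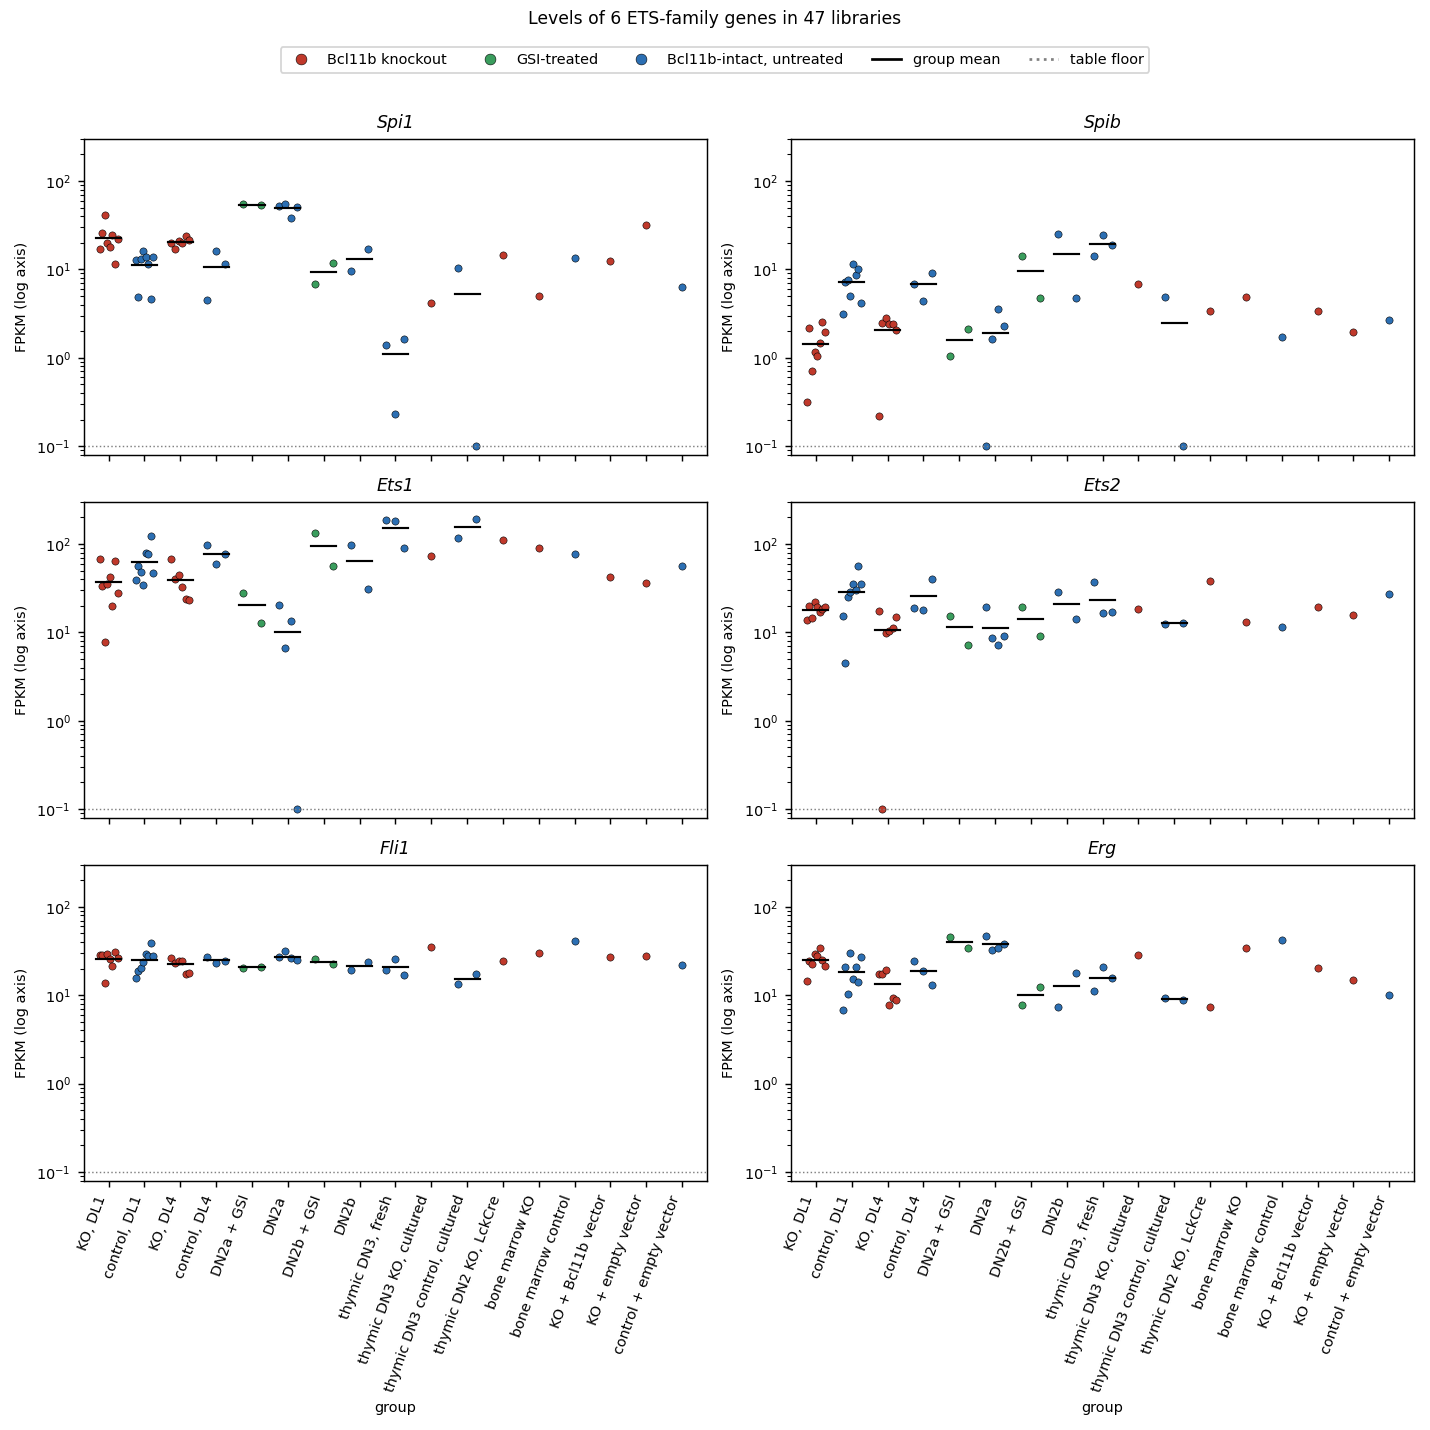
FPKM of the 6 genes (log axis) in each of the 47 libraries, by group, with a bar at each group mean and a dotted line at the table's floor of 0.1 FPKM. Spi1 stands highest in DN2a libraries and lowest in fresh thymic DN3 libraries, Ets1 runs the other way, and Fli1 lies between 13.54 and 41.3 FPKM throughout.

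Ordered by mean over the 10 groups with 2 or more libraries, Spi1 was highest in DN2a cells, at 53.95 FPKM with GSI and 49.3 FPKM without. Next came KO cells on DL1 (22.6 FPKM) and DL4 (20.6 FPKM), then DN2b cells without GSI (13.2 FPKM) and controls on DL1 (11.3 FPKM) and DL4 (10.8 FPKM). DN2b cells with GSI (9.29 FPKM) and thymic DN3 cells, cultured (5.24 FPKM) and fresh (1.10 FPKM), closed the order. Only 2 steps of this order exceeded the larger SD of the neighbouring groups, the one below untreated DN2a and the one below KO on DL4.

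For Erg, DN2a cells also led, at 39.8 FPKM with GSI and 37.8 FPKM without, followed by KO cells on DL1 (24.9 FPKM). The steps below untreated DN2a and below KO on DL1 exceeded the larger SD, and the remaining groups lay between 18.8 FPKM (control on DL4) and 9.01 FPKM (cultured thymic DN3 controls). Ets1 had the reverse order at its ends, with 155 FPKM in cultured and 152 FPKM in fresh thymic DN3 controls and 10.1 FPKM in untreated DN2a cells. Its only step beyond the larger SD lay below fresh thymic DN3. Spib had its highest mean in fresh thymic DN3 (19.2 FPKM) and its lowest in KO on DL1 (1.42 FPKM), with 1 such step, below control on DL4 (6.83 FPKM). For Ets2 no step between neighbouring groups exceeded the larger SD, and for Fli1 1 did, above the cultured thymic DN3 controls (15.4 FPKM).

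Loss of Bcl11b was examined in 14 KO and 11 control fetal liver libraries. Among the 6 ETS genes, Spi1 rose and Spib and Ets1 fell in KO cells, whereas Ets2, Fli1 and Erg did not pass the test. Thus 3 of the 6 were called at an adjusted p under 0.05, where 16.9% of all 12678 genes tested were called. All 6 genes passed the filter on low values. The differences are given on the log2(FPKM + 1) scale from a limma fit with stroma and IL-7 as covariates, which understates the change of genes with low values.

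Spi1, which encodes PU.1, ran from 11.6 to 41.1 FPKM (median 20.6) in KO libraries and from 4.53 to 16.3 FPKM (median 12.7) in controls. The ranges overlap through 1 KO library, DL1 replicate 7 at day 12, the only KO library titled DN2b, since the next lowest KO value was 17.1 FPKM. Means were 21.7 ± 6.63 FPKM in KO (SD, n = 14) and 11.2 ± 4.45 FPKM in control (SD, n = 11). The log2 difference was 0.97 (SE 0.19, 95% interval 0.57 to 1.36, limma adjusted p = 0.000622), and KO was higher in 9 of 9 pairs that shared title date, stroma and IL-7. Of these pairs 3 are 1 KO and 1 control culture on different days, so that 7 pairs of cultures stand behind the 9. In the pair titled DN2b in both groups, Spi1 was 11.6 FPKM in KO and 4.63 FPKM in control. In the libraries titled DN2 in both groups, the log2 difference was 0.77 and was not called (limma adjusted p = 0.221).

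Spib, the relative of PU.1, moved the other way. It ran from 0.217 to 2.81 FPKM (median 2.01) in KO libraries and from 3.13 to 11.5 FPKM (median 7.14) in controls. The groups do not overlap, which held for 0.505% of the genes tested when KO was the lower group. Means were 1.70 ± 0.868 FPKM in KO (SD, n = 14) and 7.07 ± 2.68 FPKM in control (SD, n = 11), a log2 difference of -1.63 with an SE of 0.19 (95% interval -2.03 to -1.23, limma adjusted p = 6.92e-07), lower in 9 of 9 pairs. It was also called in the libraries titled DN2 in both groups (-2.01, limma adjusted p = 0.00762), where all controls come from 1 culture. In the pair titled DN2b in both groups Spib was 2.51 FPKM in KO and 10.2 FPKM in control. The 2 lowest KO values, 0.217 FPKM in DL4 replicate 1 and 0.317 FPKM in DL1 replicate 1, came from cultures of the same title date with reduced IL-7. Plasmacytoid dendritic cells, another source of Spi-B, were followed through 6 measured markers, whose summed level was 116 to 260 FPKM in KO libraries and 136 to 276 FPKM in controls. Of the 5 tested, 2 were called higher, where 9.8% of all genes were, and none was called lower. The other 3 had negative differences. The median log2 difference of the 5 was -0.14, beside 0.04 over all genes tested. Both B-cell markers tested fell, where 7.1% of all genes were called lower. Cd79b stood at 6.07 ± 1.16 FPKM in KO (SD, n = 14) and 9.13 ± 3.46 FPKM in control (SD, n = 11), with limma adjusted p = 0.0481. Vpreb1 stood at 0.848 ± 0.325 FPKM in KO and 2.10 ± 0.528 FPKM in control, with limma adjusted p = 1.87e-05. Vpreb1 passed the filter only through the controls, with 1.10 to 2.90 FPKM there and a median of 0.839 FPKM in KO. The filter thus favoured a fall of this marker. The summed level of the 5 B-cell markers measured was 5.62 to 9.97 FPKM in KO and 7.66 to 18.3 FPKM in control. The part of either list in the level of Spib was not tested.

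Because Spib and Ets2 were the 2 genes lower in KO in each of the 9 pairs, their promoter windows are shown. Both come from RefSeq on build GRCm38.p6, and each covers 300 bases around an annotated transcript start. Capitals mark the ETS core GGAA, read on either strand, so that TTCC is the core on the opposite strand. The Spib window lies at chr7:44532022-44532321 on the minus strand and the Ets2 window at chr16:95702157-95702456 on the plus strand.
Spib: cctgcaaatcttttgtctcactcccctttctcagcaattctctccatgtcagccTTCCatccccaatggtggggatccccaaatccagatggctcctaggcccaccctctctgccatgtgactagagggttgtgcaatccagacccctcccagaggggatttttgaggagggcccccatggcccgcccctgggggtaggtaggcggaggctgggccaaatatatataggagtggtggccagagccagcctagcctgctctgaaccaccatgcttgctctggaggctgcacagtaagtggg
Ets2: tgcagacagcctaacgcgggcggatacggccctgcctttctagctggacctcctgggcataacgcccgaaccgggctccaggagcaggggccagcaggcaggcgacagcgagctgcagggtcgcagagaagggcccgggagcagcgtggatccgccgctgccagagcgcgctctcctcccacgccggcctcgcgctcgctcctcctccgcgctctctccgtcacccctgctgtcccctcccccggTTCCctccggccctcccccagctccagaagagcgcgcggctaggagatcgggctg
Each window holds 1 core, which 95.98% of all 32851 promoter windows of this length also hold at least once. Longer motifs that contain the core, CGGAAG of the Ets1 type (16.85% of windows) and GAGGAA of the PU.1 type (28.28% of windows), were not found on either strand of these 2 windows, nor were the Runx core TGTGGT (16.76%) and the GATA motif GATAAG (7.44%). Of the 6 genes, 3 matched the promoter set: Spib and Ets2 with 1 window each and Erg with 3.

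Ets1, an activator of T-cell receptor genes, ran from 7.70 to 68.3 FPKM (median 34.4) in KO libraries and from 34.2 to 123 FPKM (median 60.0) in controls. The groups overlap, with 7 of 14 KO values inside the control range and the other 7 below it. Means were 38.0 ± 18.5 FPKM in KO (SD, n = 14) and 67.1 ± 26.9 FPKM in control (SD, n = 11), a log2 difference of -0.92 with an SE of 0.27 (95% interval -1.47 to -0.36, limma adjusted p = 0.0179). KO was lower in 8 of 9 pairs. The exception was the pair of DL1 replicates 1, with 68.3 FPKM in KO and 39.0 FPKM in control. The 2 highest KO values, 68.3 and 67.9 FPKM, belonged to the same 2 libraries that had the least Spib. With the 7 pairs of cultures as a block, the difference was -0.86 and was not called (limma adjusted p = 0.0711), nor was it in the libraries titled DN2 in both groups (-1.33, limma adjusted p = 0.3).

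Ets2, a widely expressed relative of Ets1 that responds to growth factor signalling, ran from 0.1 to 22.2 FPKM (median 15.9) in KO libraries and from 4.48 to 56.1 FPKM (median 28.3) in controls. Each group had 1 library far below its others, DL4 replicate 2 at the floor in KO and DL1 replicate 2 at 4.48 FPKM in control, and both bear the same title date. Means were 14.9 ± 5.70 FPKM in KO (SD, n = 14) and 27.8 ± 14.0 FPKM in control (SD, n = 11). The log2 difference of -0.80 (SE 0.32, 95% interval -1.45 to -0.15) was not called (limma adjusted p = 0.088), although KO was lower in 9 of 9 pairs. It was called without control DL1 replicate 2 (-0.95, limma adjusted p = 0.0318), without KO DL4 replicate 1 (-0.91, limma adjusted p = 0.0376), with the 9 pairs as a block (-1.21, limma adjusted p = 0.0337) and in libraries with standard IL-7 (-0.92, limma adjusted p = 0.00052). It was not called with the 7 pairs of cultures as a block, which counts each pair of cultures once (-1.35, limma adjusted p = 0.073), nor without the KO library at the floor (-0.61, limma adjusted p = 0.0611).

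Fli1, a factor of blood stem cells and megakaryocytes, ran from 13.8 to 30.9 FPKM (median 25.1) in KO libraries and from 15.7 to 39.4 FPKM (median 24.7) in controls. Its log2 difference was -0.04 (SE 0.13, 95% interval -0.32 to 0.23, limma adjusted p = 0.883), with KO higher in 3 of 9 pairs. Erg, its close relative, ran from 7.74 to 34.1 FPKM (median 20.4) in KO libraries and from 6.85 to 30.2 FPKM (median 18.6) in controls. Its log2 difference was 0.18 (SE 0.22, 95% interval -0.28 to 0.63, limma adjusted p = 0.662), with KO higher in 4 of 9 pairs. Neither gene was called, and both intervals span 0.

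**Figure D2:**
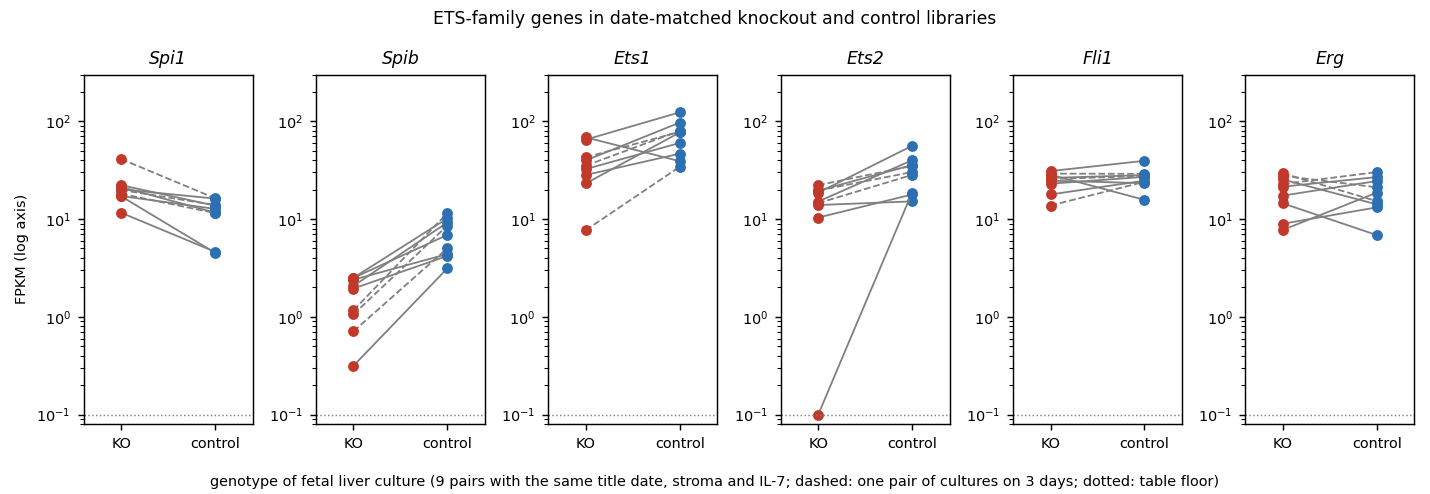
FPKM (log axis) of the 6 genes in KO (left) and control (right) libraries of the 9 pairs that share title date, stroma and IL-7; each line joins a pair, dashed lines are 1 pair of cultures on 3 days, and the dotted line is the table's floor. Spi1 is higher in KO in 9 of 9 pairs, Spib and Ets2 are lower in 9 of 9, and Ets1 is lower in 8 of 9.

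Libraries were made over 3 years by their titles, and the direction of the 4 genes that moved or nearly did was the same in each. In the earliest year (3 KO and 3 control libraries), the middle year (4 and 2) and the latest year (7 and 6), the log2 difference of Spi1 was 1.42, 0.57 and 0.88, and that of Spib was -2.04, -1.12 and -1.75. For Ets1 it was -0.17, -1.05 and -1.11, and for Ets2 -0.73, -1.15 and -0.83. Single years passed the test only for Spib in the earliest (limma adjusted p = 0.0432) and latest years (limma adjusted p = 9.75e-05) and for Ets2 in the latest (limma adjusted p = 0.00458).

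Stroma and IL-7 were also tested as modifiers. The knockout by stroma interaction called none of the 6 genes and 0% of 14271 genes, of which 338 had an unadjusted p under 0.05. Erg had the largest of the 6 interaction terms, -0.99 (SE 0.44, limma adjusted p = 1): it averaged 24.9 ± 5.82 FPKM in KO and 18.1 ± 8.02 FPKM in control on DL1 (SD, n = 8 each), and 13.3 ± 5.20 FPKM in KO (SD, n = 6) and 18.8 ± 5.65 FPKM in control (SD, n = 3) on DL4. The knockout by IL-7 interaction called 0.701% of genes and none of the 6, with limma adjusted p between 0.54 and 0.921. Reduced IL-7 lay almost wholly in the earliest year, so the year and the IL-7 level cannot be told apart. The 3 controls with reduced IL-7 are all the controls of the earliest year, and are also those whose titles name no Cre. A difference in Cre between controls therefore cannot be told apart from IL-7 or the earliest year either.

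Genes known to work with or under these factors were grouped in 5 lists, some of which share genes. None of the 13 other ETS family genes tested, of 20 listed and 15 in the table, was called in KO against control, with a median log2 difference of 0.11 beside 0.04 over all genes tested. The 2 most abundant were Elf1, at 49.9 ± 17.4 FPKM in KO (SD, n = 14) and 39.6 ± 13.8 FPKM in control (SD, n = 11), and Elk4, at 47.9 ± 10.8 FPKM in KO and 48.3 ± 18.8 FPKM in control. Spic, the third gene of the PU.1 subfamily, had 6.17 ± 2.01 FPKM in KO and 6.05 ± 3.17 FPKM in control, a log2 difference of 0.11 with an SE of 0.17 (limma adjusted p = 0.74); it was named here for its subfamily after its values were seen.

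Among partners and antagonists of PU.1, 4 of 7 tested genes rose in KO and 1 fell, where 9.8% of all genes were called higher and 7.1% lower. Cebpb, a myeloid partner, rose to 10.8 ± 4.83 FPKM in KO (SD, n = 14), against 5.24 ± 2.41 FPKM in control (SD, n = 11). Gata3, a T-lineage factor that counteracts PU.1, rose to 69.1 ± 23.2 FPKM in KO, against 40.0 ± 11.8 FPKM in control, and Irf8, which binds DNA together with PU.1, rose to 6.48 ± 2.25 FPKM in KO, against 3.74 ± 1.30 FPKM in control. Gata1, the erythroid factor known for mutual antagonism with PU.1, fell to 2.40 ± 0.968 FPKM in KO, against 9.98 ± 3.00 FPKM in control (log2 difference -1.69, limma adjusted p = 3.83e-08). The fourth gene that rose was Gata2, which averaged 1.66 FPKM in KO and 0.813 FPKM in control. With the 7 pairs of cultures as a block, Cebpb, Irf8 and Gata2 were not called (limma adjusted p = 0.144, 0.175 and 0.137), and Cebpb was not called after quantile normalization (limma adjusted p = 0.0569) or on DL1 alone (limma adjusted p = 0.2).

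Genes with well-known PU.1 sites rose in 5 of 8 tested cases and fell in none, of 14 listed and 13 in the table. Of all genes, 9.8% were called higher and 7.1% lower. The median log2 difference of the 8 was 1.09. The log2 difference was 3.43 for Tyrobp, an adaptor of myeloid and natural killer receptors, 1.42 for Bcl11a, a relative of Bcl11b, and 1.09 for the kinase gene Btk (limma adjusted p between 3e-07 and 4.99e-05). Tyrobp stood at 264 ± 93.6 FPKM in KO (SD, n = 14), against 34.9 ± 26.8 FPKM in control (SD, n = 11). Among markers of innate lymphoid and natural killer cells, 6 of 6 tested rose in KO, where 9.8% of all genes were called higher. The filter itself favours markers that are high in KO. Klrb1c had a median of 1.47 FPKM in KO and 0.555 FPKM in control, and Il2rb 8.02 and 0.726 FPKM. The summed level of the 8 measured was 63.0 to 265 FPKM in KO and 23.6 to 88.3 FPKM in control. Ncr1 and Eomes were under 1 FPKM in both groups. Of the 5 myeloid markers tested none was called, and the summed level of the 7 measured was 6.35 to 48.7 FPKM in KO and 5.43 to 27.9 FPKM in control. Their part in these results was not tested.

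Fli1 and Erg act in blood stem cells with a set of partners. Of those tested, 3 of 4 rose in KO and none fell, where 9.8% of all genes were called higher and 7.1% lower. The 3 that rose were Tal1 (log2 difference 0.93), Lyl1 (0.76) and Gata2 (0.55), with limma adjusted p of 2.1e-06, 0.023 and 0.00281. Tal1 and Gata2 had low levels. Tal1 averaged 3.03 FPKM in KO and 1.18 FPKM in control, and Gata2 1.66 and 0.813 FPKM. The control mean of Gata2 thus lay under the filter's 1 FPKM. Lyl1 missed the threshold without control DL4 replicate 3 (limma adjusted p = 0.0507), on DL1 alone (limma adjusted p = 0.178) and in each single year. Gata2 missed it with the 7 pairs of cultures as a block (0.53, limma adjusted p = 0.137). None of the 3 was called on DL4 alone (limma adjusted p between 0.191 and 0.801). The same held in the libraries titled DN2 in both groups (limma adjusted p between 0.0536 and 0.293). The summed level of 7 megakaryocyte markers was 36.4 to 134 FPKM in KO and 4.25 to 22.4 FPKM in control, of which Itga2b held 30.6 to 124 FPKM in KO and 0.1 to 16.6 FPKM in control, while Pf4, Gp9 and Ppbp were under 1 FPKM in both groups. Of 8 T-lineage genes with ETS sites, 5 fell and 1 rose in KO, where 7.1% of all genes were called lower and 9.8% higher. Their median log2 difference was -0.70. Cd3e, a chain of the T-cell receptor complex, stood at 15.6 ± 17.8 FPKM in KO (SD, n = 14) and 107 ± 46.2 FPKM in control (SD, n = 11), and the log2 difference was -3.84 for Cd3e, -2.22 for Ptcra and -1.67 for Zap70 (limma adjusted p between 3.85e-06 and 0.00124). The gene that rose was Gata3. Ptcra and Zap70 were not called in the libraries titled DN2 in both groups (limma adjusted p = 0.0841 and 0.315).

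Some cultures were sampled on several days, with 1 library a day and no test. In KO culture A on DL1, Spi1 was 41.1 FPKM at day 9, 19.8 at day 10 and 18.1 at day 12, and in KO culture B it was 24.8 at day 9 and 11.6 at day 12. In the control culture it was 16.3, 13.9 and 11.5 FPKM at days 9, 10 and 12. Spi1 was thus lower on each later day in each of the 3 cultures, and the KO culture A value lay above that of the control culture on each day. KO culture B was titled DN2 at day 9 and DN2b at day 12, so day and sort gate cannot be told apart in it. Ets1 went the other way in both KO cultures, with 7.70, 35.1 and 42.8 FPKM at days 9, 10 and 12 in culture A and 19.8 and 64.9 FPKM at days 9 and 12 in culture B, while the control culture had 34.2, 79.9 and 77.9 FPKM. Spib stayed at 0.712, 1.17 and 1.06 FPKM in KO culture A and at 1.47 and 2.51 FPKM in KO culture B, against 5.03, 11.5 and 8.56 FPKM in the control culture. The day 9 library of KO culture A had the highest Spi1 and the lowest Ets1, Fli1 (13.8 FPKM) and Bcl11b (8.77 FPKM) of the 14 KO libraries.

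**Figure D3:**
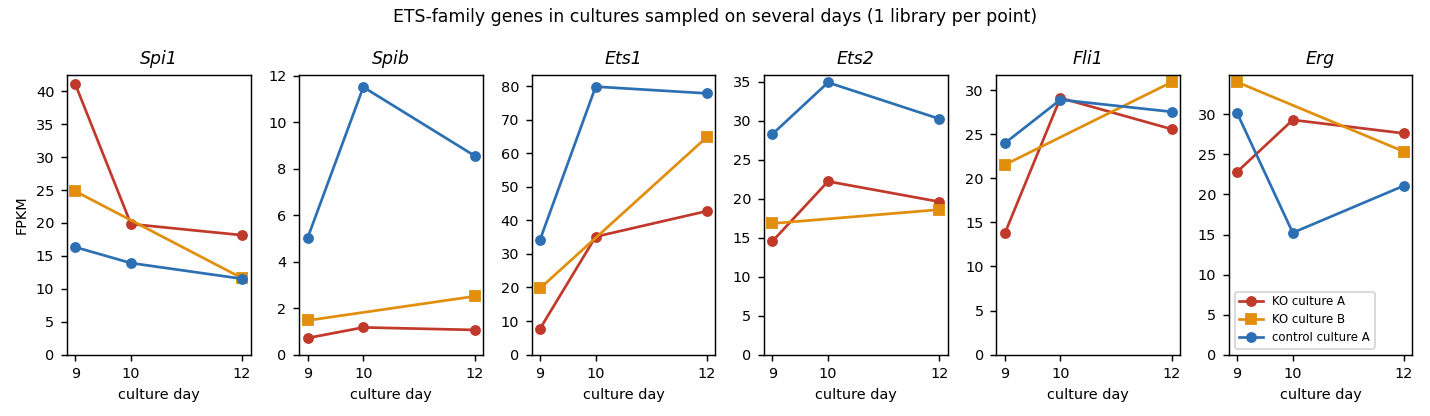
FPKM of the 6 genes (linear axes from 0) by culture day in KO culture A, KO culture B and the control culture, 1 library per point. Spi1 is lower at day 12 than at day 9 in the 3 cultures, Ets1 is higher, and Spib lies at or under 2.51 FPKM in both KO cultures and at or above 5.03 FPKM in the control culture. KO culture B is titled DN2 at day 9 and DN2b at day 12.

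The normal step between DN2a and DN2b was compared in untreated cells. Spi1 and Erg were higher in DN2a and the other 4 genes did not pass the test, so that 2 of 6 were called higher, where 4.23% of 13364 genes were. The calls over all genes were 565 higher and 1234 lower in DN2a, but 662 higher and 567 lower after quantile normalization. Spi1 was 52.0, 55.5, 38.2 and 51.5 FPKM in DN2a and 9.63 and 16.8 FPKM in DN2b, and the groups do not overlap. The log2 difference was 1.86 (SE 0.25, 95% interval 1.26 to 2.45, limma adjusted p = 0.0116). Erg was 46.6, 32.4, 34.3 and 37.8 FPKM in DN2a and 7.35 and 18.0 FPKM in DN2b, again without overlap, a log2 difference of 1.61 with an SE of 0.33 (95% interval 0.84 to 2.37, limma adjusted p = 0.0277). With 4 against 2 libraries, 18% of genes lay wholly higher and 27.1% wholly lower in DN2a.

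Spib was 0.1, 1.65, 3.53 and 2.31 FPKM in DN2a and 24.9 and 4.73 FPKM in DN2b, and Ets1 was 20.4, 6.66, 13.4 and 0.1 FPKM in DN2a and 97.1 and 31.1 FPKM in DN2b. Both lay wholly lower in DN2a, and neither was called (log2 difference -2.24 with limma adjusted p = 0.0758, and -2.98 with limma adjusted p = 0.116). Ets2 was 19.2, 8.63, 7.24 and 9.16 FPKM in DN2a and 28.3 and 14.1 FPKM in DN2b, which overlap (log2 difference -0.90, limma adjusted p = 0.179). Fli1 had 24.9 to 31.3 FPKM in DN2a and 19.1 and 23.9 FPKM in DN2b (log2 difference 0.34, limma adjusted p = 0.222). DN2b replicate 1, which is titled DN3, held more Spib and Ets1 and less Spi1 and Erg than replicate 2. Without it neither call held (Spi1 1.48, limma adjusted p = 0.0831; Erg 1.01, limma adjusted p = 0.131), and without the day 4.5 library, DN2a replicate 4, the call of Erg was lost (1.60, limma adjusted p = 0.0753). The megakaryocyte marker sum was 94.0 to 120 FPKM in DN2a and 7.34 to 9.56 FPKM in DN2b. Of it, Itga2b alone held 80.8 to 108 FPKM in DN2a and 0.1 to 1.425 FPKM in DN2b. By sign, 2 of the 4 megakaryocyte markers tested were higher in DN2a and 2 lower. The myeloid marker sum was 52.4 to 75.5 FPKM in DN2a and 10.2 to 20.8 FPKM in DN2b. Mpo held 38.1 to 52.9 FPKM of it in DN2a and 0.688 to 10.8 FPKM in DN2b. All 6 myeloid markers tested were higher in DN2a, of which 1 was called. The part of either list in these differences was not tested.

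The later step was followed in 3 fresh thymic DN3 libraries against the 2 DN2b libraries, where the source of the cells, thymus or culture, moves with the stage and cannot be told apart from it. No gene of the 6 was called, where 0.245% of 13495 genes were and 1610 had an unadjusted p under 0.05. Spi1 was 1.41, 0.233 and 1.65 FPKM in thymic DN3 and 9.63 and 16.8 FPKM in DN2b. The groups do not overlap, as for 12.1% of genes in this direction, and the log2 difference of -2.79 (SE 0.40, 95% interval -3.72 to -1.86) missed the threshold (limma adjusted p = 0.0507). It passed without DN2b replicate 1 (-3.16, limma adjusted p = 0.0195) and without the LckCre library, DN3 replicate 1 (-2.93, limma adjusted p = 0.0424). Ets1 was 185, 182 and 90.9 FPKM in thymic DN3 and 97.1 and 31.1 FPKM in DN2b, which overlap (log2 difference 1.38, SE 0.50, limma adjusted p = 0.32). Spib was 14.1, 24.3 and 19.1 FPKM in thymic DN3 and 24.9 and 4.73 FPKM in DN2b, and its log2 difference of 0.69 (SE 0.57) was not called (limma adjusted p = 0.738). Ets2, Fli1 and Erg differed by 0.12, -0.07 and 0.38 (limma adjusted p between 0.8 and 0.962).

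KO cells were also set beside the normal DN2a stage, whose phenotype the labels' protocol gives for the sort of floxed cells, in 7 KO libraries on DL1 with standard IL-7 and the 4 DN2a libraries. By title 1 of the 7 KO libraries was DN2a, 5 were DN2 and 1 was DN2b. Cre retrovirus and title year move with the group here, and the DN2a libraries are the same as in the stage comparison. In KO cells Spi1 and Erg fell and Ets2 rose relative to DN2a, so that 3 of 6 genes were called, where 16.9% of 12979 genes were. Spi1 ran from 11.6 to 41.1 FPKM (median 22.2) in KO and from 38.2 to 55.5 FPKM (median 51.7) in DN2a, and 1 KO library, the day 9 library of culture A, lay inside the DN2a range. The log2 difference was -1.12 (SE 0.25, 95% interval -1.66 to -0.57, limma adjusted p = 0.011). Ets2 averaged 18.7 ± 2.44 FPKM in KO (SD, n = 7) and 11.1 ± 5.51 FPKM in DN2a (SD, n = 4), a log2 difference of 0.79 with an SE of 0.21 (limma adjusted p = 0.0245). Erg averaged 26.4 ± 4.30 FPKM in KO (SD, n = 7) and 37.8 ± 6.30 FPKM in DN2a (SD, n = 4), a log2 difference of -0.50 with an SE of 0.15 (limma adjusted p = 0.0376).

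The calls of Ets2 and Erg hung on single libraries. Ets2 was not called without DN2a replicate 2, 3 or 4 (limma adjusted p between 0.0736 and 0.0777), and Erg was not called without any of 9 of the 11 libraries in turn (limma adjusted p up to 0.111). Ets1 ran from 7.70 to 64.9 FPKM (median 33.6) in KO and from 0.1 to 20.4 FPKM (median 10.0) in DN2a; its log2 difference of 2.04 (SE 0.69, 95% interval 0.56 to 3.53) was not called (limma adjusted p = 0.0577), but was without DN2a replicate 1 (2.57, limma adjusted p = 0.0361) and without KO DL1 replicate 3 (2.34, limma adjusted p = 0.0293). Spib ran from 0.712 to 2.51 FPKM in KO and from 0.1 to 3.53 FPKM in DN2a, a log2 difference of -0.04 with an SE of 0.32 (95% interval -0.73 to 0.66, limma adjusted p = 0.95). Fli1 differed by -0.15 (SE 0.19, limma adjusted p = 0.624). Of 6 myeloid markers tested 5 fell in KO, where 7.25% of all genes were called lower. Lyz2 and Csf1r passed the filter only through DN2a, being under 1 FPKM in all 7 KO libraries. The summed level of the 7 measured was 10.1 to 48.7 FPKM in the 7 KO libraries and 52.4 to 75.5 FPKM in DN2a. Of 6 innate lymphoid and natural killer markers tested 3 rose, where 9.67% of all genes were called higher. Klrb1c passed the filter only through KO, being under 1 FPKM in all 4 DN2a libraries. The sum of the 8 measured was 63.0 to 196 FPKM in KO and 20.7 to 62.0 FPKM in DN2a. The part of either list in these differences was not tested.

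**Figure D4:**
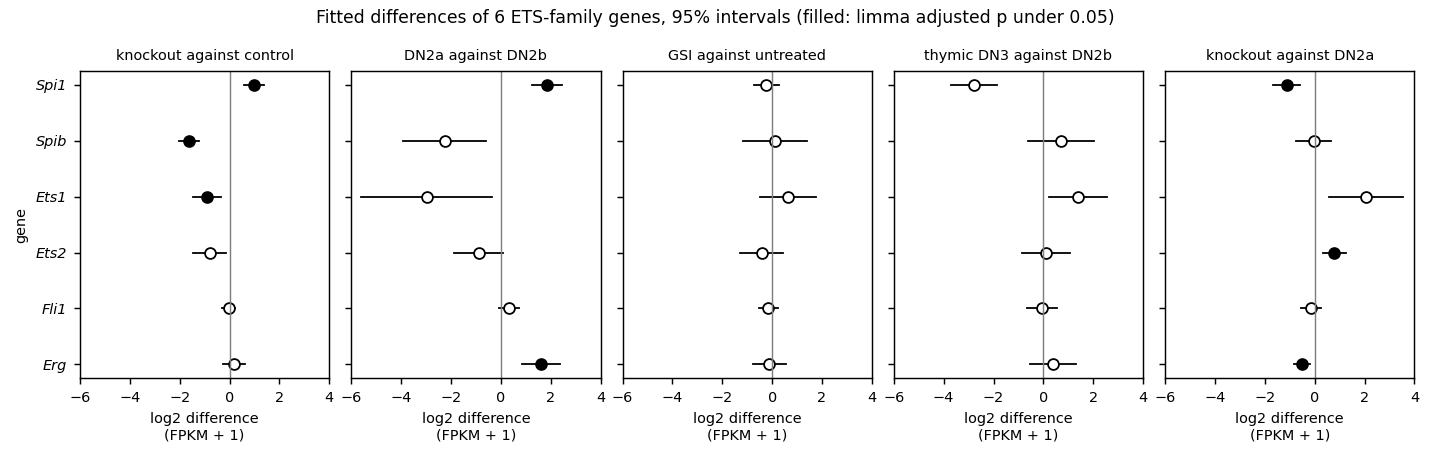
Log2 differences on the FPKM + 1 scale with 95% intervals for the 6 genes in 5 comparisons, each named as the first group against the second; filled points have a limma adjusted p under 0.05. Spi1 is filled in 3 panels, with 0.97 in KO against control, 1.86 in DN2a against DN2b and -1.12 in KO against DN2a, and no point is filled for GSI or for thymic DN3.

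Notch signalling was blocked for 12 hours in DN2a and DN2b cells. None of the 6 genes was called, and 0% of 12783 genes were; 297 genes had an unadjusted p under 0.05, none of the 6 among them. With the 4 pairs of the same title date as a block, the count called was again 0, while 1323 genes, Ets1 and Ets2 among them, fell under 0.05 before adjustment. Ets1 was higher with GSI in 4 of 4 pairs: it was 28.1 and 12.6 FPKM in DN2a with GSI, against 20.4 and 6.66 FPKM without, and 132 and 56.7 FPKM in DN2b with GSI, against 97.1 and 31.1 FPKM without. Its log2 difference was 0.64 (SE 0.49, 95% interval -0.49 to 1.77, limma adjusted p = 1), with an SE of 0.10 and limma adjusted p = 0.285 under the block. Ets2 was lower with GSI in 4 of 4 pairs, with 15.5 and 7.22 FPKM in DN2a with GSI, against 19.2 and 8.63 FPKM without, and 19.3 and 9.00 FPKM in DN2b with GSI, against 28.3 and 14.1 FPKM without (log2 difference -0.41, SE 0.38, limma adjusted p = 1; under the block SE 0.097, limma adjusted p = 0.377). Spi1, which stood at 54.9 and 53.0 FPKM in DN2a with GSI, against 52.0 and 55.5 FPKM without, differed by -0.23 (SE 0.22, 95% interval -0.73 to 0.28). Spib, Fli1 and Erg differed by 0.10, -0.15 and -0.11, with intervals that span 0.

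Conditions with 1 KO library have no replicate check. The LckCre thymic DN2 KO library had 14.6 FPKM of Spi1, 3.34 of Spib, 111 of Ets1, 37.7 of Ets2, 24.1 of Fli1 and 7.44 of Erg. The fresh thymic DN3 control with LckCre, a stage later, had 1.41 FPKM of Spi1, 14.1 of Spib, 185 of Ets1, 37.1 of Ets2, 19.2 of Fli1 and 11.2 of Erg. More Spi1 and less Spib and Ets1 in the KO library are the directions seen in the fetal liver cultures, but stage and genotype cannot be told apart here.

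Acute deletion in thymic DN3 cells gave 4.18 FPKM of Spi1 and 6.87 FPKM of Spib in the KO library at day 4, against 0.1 FPKM of both in the day 4 control and 10.4 FPKM of Spi1 and 4.84 FPKM of Spib in the day 3 control. The KO value of Spi1 lies between those of the 2 controls. Ets1 was 73.6 FPKM in KO, against 115 FPKM in the day 3 and 194 FPKM in the day 4 control, Erg was 28.7 FPKM in KO, against 9.23 and 8.78 FPKM, and Fli1 was 34.9 FPKM in KO, against 13.54 and 17.2 FPKM. Ets2 was 18.2 FPKM in KO, against 12.3 and 12.9 FPKM. KO thus lay below both controls for Ets1 and above both for Spib, Ets2, Fli1 and Erg; for Spib and Ets2 this is opposite to the direction in fetal liver. In the same libraries, the summed innate lymphoid and natural killer markers were 147 FPKM in KO, against 28.1 and 29.6 FPKM.

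In bone marrow cultures the library labelled KO had 5.05 FPKM of Spi1, 4.83 of Spib and 89.2 of Ets1, and its control had 13.6 FPKM of Spi1, 1.72 of Spib and 77.9 of Ets1. These directions are the opposite of those in fetal liver, but Bcl11b was 45.0 FPKM in the library labelled KO and 44.9 FPKM in the control. Other KO libraries also kept Bcl11b reads, up to 37.9 FPKM in fetal liver and 36.4 FPKM in the LckCre library. The level alone therefore does not settle whether Bcl11b was deleted in the bone marrow library. Fli1 and Erg were 30.3 and 34.4 FPKM in the library labelled KO and 41.3 and 42.2 FPKM in its control, and the control value of Fli1 is the highest of the 47 libraries.

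A Bcl11b vector in KO cells gave 105 FPKM of Bcl11b, against 24.7 FPKM in KO cells with empty vector. Spi1 was 12.5 FPKM in KO cells with the Bcl11b vector, 32.2 FPKM in KO cells with empty vector and 6.39 FPKM in control cells with empty vector. Spib was 3.40 FPKM with the Bcl11b vector, 1.94 FPKM in KO with empty vector and 2.67 FPKM in control with empty vector, and Ets1 was 42.0, 35.7 and 56.3 FPKM in the same order. The Bcl11b vector library therefore lay between the 2 empty-vector libraries for Spi1 and Ets1, and above both for Spib. Ets2 was 19.1, 15.6 and 27.3 FPKM, Fli1 26.9, 27.8 and 21.7 FPKM, and Erg 20.3, 14.8 and 10.0 FPKM in that order.

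Spi1 and Ets1 ran opposite to each other over the libraries, with a Pearson correlation of log2 levels of -0.778 over 47 libraries, -0.849 over the 14 KO and -0.622 over the 11 control libraries; these libraries share stages, cultures and the authors' joint adjustment. The log2 ratio of Spi1 to Ets1, taken on FPKM + 1, was above 0 in 4 of 4 DN2a libraries, in 3 of 14 KO, and in 0 of 11 controls. Its mean was 2.80 ± 1.98 in DN2a (SD, n = 4), -0.65 ± 1.14 in KO (SD, n = 14), -2.50 ± 1.09 in control (SD, n = 11) and -6.20 ± 1.05 in fresh thymic DN3 (SD, n = 3). The DN2a mean is raised by replicate 4, at 5.58 with Ets1 at the floor, beside 1.31, 2.88 and 1.44 in replicates 1, 2 and 3. The 6 genes thus differed in make-up between stages: of their summed FPKM, Spi1 held 36.1% and Ets1 7.05% in DN2a, 19.1% and 30.6% in KO, 7.81% and 42.2% in control, and 0.545% and 64.3% in fresh thymic DN3.

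**Figure D5:**
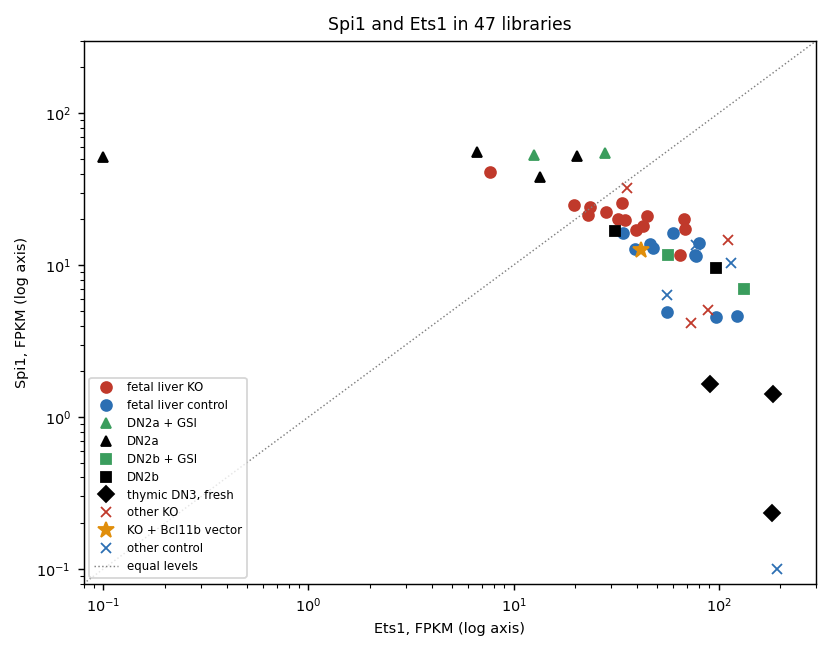
FPKM of Spi1 against Ets1 (log axes) in the 47 libraries, with a symbol for each group and a dotted line of equal levels. DN2a libraries lie above the line, fresh thymic DN3 libraries lie far below it, and 3 of 14 fetal liver KO libraries and 0 of 11 controls lie above it.

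Ets1 and Fli1 are neighbours on chromosome 9, on opposite strands, and Erg and Ets2 are neighbours on chromosome 16, also on opposite strands. The neighbours of the first pair correlated by 0.064 over all 47 libraries but by 0.822 over the 25 fetal liver libraries after removal of the group means, and the second pair by -0.166 and -0.119. Genes that are not neighbours reached similar values over the fetal liver libraries, with 0.765 for Fli1 and Bcl11b and 0.704 for Ets1 and Bcl11b. The predicted genes Gm22060, Gm38292, Gm38346, Gm37474 and Gm37082 overlap Fli1 on its own strand. No strand-marking step is named, so that reads of the predicted opposite-strand genes Gm27240 at Ets1 and Gm27201 at Fli1 cannot be told apart from those of the 2 genes.

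The genes most like each member were taken from 9098 genes with a mean of at least 5 FPKM, by Pearson correlation of log2 levels over the 47 libraries. For Spi1 they were Ffar2 (0.938), a receptor for short-chain fatty acids, Fgd2 (0.933) and the lysosomal nuclease gene Dnase2a (0.909), and the most opposite were the glucocorticoid receptor gene Nr3c1 (-0.867) and Galnt12 (-0.829). For Ets1 they were Ppm1h (0.912), the cell cycle factor E2f2 (0.889) and Nr3c1 (0.854), with Adap1 (-0.849) and Fgd2 (-0.828) most opposite. Nr3c1 and Fgd2 thus stood at opposite ends for Spi1 and Ets1. For Ets2 the most alike was Satb1 (0.883), a chromatin organiser of thymocytes, then Rmnd5a (0.748) and Abcc5 (0.708), with Tmed1 (-0.483) and Ppme1 (-0.479) most opposite.

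For Spib the most alike were Grasp (0.818), Gm12504 (0.781) and the zinc-finger gene Sall2 (0.772), with Reep5 (-0.773) and the kinase gene Pim1 (-0.747) most opposite. For Fli1 they were Sdcbp (0.797), Msn (0.797), which encodes the membrane linker moesin, and 1500003O03Rik (0.788), with Pop5 (-0.786) and Naa10 (-0.77) most opposite. For Erg they were Mlkl (0.82), the effector of necroptosis, Dapp1 (0.815) and Fam65a (0.799), with Agpat3 (-0.678) and Tmem120b (-0.668) most opposite.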

How the data were processed

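The authors deposited 1 table of FPKM values, labelled in its name as merged and ComBat-adjusted, a correction for batch. The submitters' processing notes name mm9 as the mouse build; the aligner, the quantifier and the ComBat batches are not given in the sources used, and the adjustment could have moved the differences either way. The lowest value, 0.1 FPKM, is a floor at which 0.468% to 6.67% of genes per library stood. Another 16 value columns, which match no sample here, were left out. Sequencing depth is unknown, so no counting interval is given. Column totals ran from 581205 to 1005744 FPKM, and 0 columns were identical.

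Groups came from titles and characteristics. Genes that reached 1 FPKM in as many libraries as the smaller group held were fitted on log2(FPKM + 1) by limma 3.58.1 (R 4.3.3), using trended empirical Bayes variances and Benjamini-Hochberg adjustment over all genes tested, after a test of the script on simulated data. A gene is called when its adjusted p is under 0.05. Tables and plots used Python 3.11.15, pandas 2.3.3 and matplotlib 3.10.9. Some libraries share a culture and the labels do not always name separate cultures, so p-values measure the spread between these libraries.

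Pairs come from shared title dates. Deviations from group means correlated between -0.055 and 0.528 within KO and control pairs, and by 0.666 and 0.73 within GSI pairs. Alternatives were a pseudocount of 0.1 FPKM, no filter, quantile normalization, each library left out, replicate blocks, and subsets by stroma, IL-7 and title year; a subset of libraries titled DN2 was added after the data were seen.

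The 6 genes, the gene lists and the markers were chosen with earlier results of these data known. List genes named are up to 4 called members with the largest absolute difference in KO against control, or the 2 most abundant where none was called; the 3 most alike and 2 most opposite genes are named for each of the 6. Some listed genes and markers are not reported here by name. Listed genes absent from the table were Etv1, Elf3, Spdef, Fev, Etv2 and Fcgr1. Promoter windows are RefSeq's on GRCm38.p6, and neighbouring genes are from GENCODE M21; no coordinates of the deposited build are used.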

Additional observations from a re-analysis of the deposited data

Results flagged for a closer look

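The 6 genes were examined in the 4 groups that hold 4 or more libraries, which gives 24 sets of values. In 2 sets 1 value stood apart from the rest, where chance alone flags about 5% of sets. Spib in KO DL4 replicate 1 was 0.217 FPKM, with the nearest of the other 5 libraries at 2.07 FPKM and the highest at 2.81 FPKM; the gap was 0.716 of the range. That library came from a culture with reduced IL-7 and also had the highest Ets1 of the KO libraries on DL4, 67.9 FPKM. Ets2 in DN2a replicate 1 was 19.2 FPKM, with the nearest of the other 3 libraries at 9.16 FPKM and the lowest at 7.24 FPKM; the gap was 0.84 of the range. The same library had Spib at the floor of 0.1 FPKM and the highest Erg of the 47 libraries, 46.6 FPKM.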

How the results depend on the processing

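In KO against control, 3 of the 6 genes were called. The count was 3 to 4 with each library left out, 4 with the 9 pairs as a replicate block and 2 with the 7 pairs of cultures as a block. It was 1 on OP9-DL4 alone, 1 in the earliest year, 0 in the middle year and 1 in libraries titled DN2 in both groups; these subsets hold fewer libraries. Spi1, Spib and Ets1 kept their direction in each alternative run. The counts in the other comparisons ran, with a library left out, from 0 to 2 for DN2a against DN2b, from 0 to 1 for thymic DN3 against DN2b and from 1 to 3 for KO against DN2a. The count for GSI was 0 throughout, with the pairs as a replicate block too.

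Directions turned for genes that were not called, or only in small subsets. Erg in KO against control was -0.055 with the 7 pairs of cultures as a block, -0.57 on OP9-DL4, -0.12 in the earliest year and -0.46 in the middle year. Fli1 was 0.29 in the earliest year, and -0.096 to 0.032 with a library left out. Elf1 was -0.017 with standard IL-7, -0.061 in the latest year and -0.27 in libraries titled DN2. Elk4 was -0.070 in the latest year, -0.018 in libraries titled DN2, and -0.021 to 0.16 with a library left out. Irf8 was -0.18 in the middle year. Spib in KO against DN2a was 0.24 with a pseudocount of 0.1 FPKM, and -0.45 to 0.24 with a library left out. With a library left out, GSI gave -0.25 to 0.63 for Spib and -0.32 to 0.16 for Erg, and thymic DN3 against DN2b gave -0.39 to 1.78 for Spib, -0.36 to 0.60 for Ets2, -0.23 to 0.089 for Fli1 and -0.21 to 0.97 for Erg. The cause was not tested.

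Quantile normalization moved the median of all genes in DN2a against DN2b to 0.05, against -0.07 as deposited, and that of the IL-7 interaction to -0.02, against 0.12. The number of genes called over the whole table was 1065 with a pseudocount of 0.1 FPKM and 60 to 1406 with a library left out in DN2a against DN2b, where 1799 were called, and 6 to 323 in thymic DN3 against DN2b, where 33 were called. In KO against control it was 1282 and 839 with the 2 blocks, against 2142, and 185 to 1396 in the subsets. In KO against DN2a it was 1160 to 2404, against 2196.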
